A study of Homo sapiens with 8 samples.

Results

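The transcript levels of 10 genes were followed after knockdown of the arginine methyltransferase PRMT9 in 2 acute myeloid leukemia (AML) lines. They are genes that MLL fusion proteins are known to switch on or that mark leukemia stem cells, and KMT2A, which forms the fusion. The genes were HOXA5, HOXA7, HOXA9, HOXA10, MEIS1, PBX3, MEF2C, MYB, FLT3 and KMT2A. They were taken by symbol from the Molm13 gene table and by the same gene identifier from the THP1 table, and all 10 were found, out of 57992 genes listed for Molm13 and 58174 listed for THP1. The rule uses gene names and no measured value, although the genes were chosen with earlier results of these data known.

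KMT2A (also called MLL) encodes a histone H3 lysine 4 methyltransferase that keeps HOX genes active in blood stem cells. In MLL-rearranged leukemia its N-terminal part is fused to a partner such as MLLT3 (AF9), which recruits elongation factors and the histone methyltransferase DOT1L, and HOXA genes, MEIS1, MEF2C and other stem cell genes stay on. HOXA9 and HOXA10 proteins bind DNA together with MEIS and PBX proteins, and the complex is known to drive self-renewal and to activate MYB and FLT3 in myeloid cells.

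Poly(A) RNA was sequenced from the established AML lines Molm13 and THP1, which are both known to carry a KMT2A-MLLT3 fusion. Molm13 is also known for an internal tandem duplication in FLT3. Each line had 2 control libraries (shCtrl, genotype given as WT) and 2 knockdown libraries (shPRMT9, genotype given as PRMT9 knockdown), and all 8 libraries, controls included, came from cells given doxycycline (Dox) to induce the hairpin. The comparison asks what loss of PRMT9 does to the AML transcriptome. Dose and time of induction were not in the labels. The numbers 1 and 2 after shPRMT9 were read as replicates, although the study also numbers its hairpins that way, so hairpin and replicate cannot be told apart. The labels do not say that replicates were separate cultures, and the p-values then measure only the spread between these libraries. The names of the THP1 libraries carry the letters OCI, and the label THP1 was used as given. Because RNA was taken in bulk, fewer cells expressing a gene and less RNA per cell cannot be told apart.

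Library totals ran from 18720950 to 27356870 counts, and replicates differed by more than counting noise in every group (chi-square per gene 1.38 to 2.30). PRMT9 itself fell in both lines, from 332 and 289 counts to 41 and 56 in Molm13 (log2 change -2.68 ± 0.14 SE) and from 317 and 352 counts to 60 and 68 in THP1 (-2.29 ± 0.13 SE; edgeR quasi-likelihood test, Benjamini-Hochberg adjusted p = 3.4e-21 and 3.5e-14). Monocyte and macrophage markers moved with the knockdown. Of the 15 listed, 8 of 10 tested rose and 1 fell in Molm13, where their summed level went from between 797 and 803 CPM (counts scaled to library size) in controls to between 1330 and 1350 CPM. In THP1 12 of 13 tested rose, none fell, and the sum went from 2110 to between 3480 and 3650 CPM. Most of both sums came from LYZ, a gene named after its values were seen, so the sums largely follow LYZ. It had 12927 and 12423 counts in Molm13 controls and 48446 and 52233 in THP1 controls. Of all genes tested, 33.4% rose and 33.6% fell in Molm13, and 19.1% rose and 18.6% fell in THP1. The same shares apply to each gene list below. MRC1 was at or near 0 in both lines, and CD14 was under 10 counts in every Molm13 library. The part of these markers in the changes below was not tested. Erythroid and T-cell markers stayed under 2 CPM in sum in every library. B-cell markers summed to between 39.7 and 42.9 CPM in Molm13, nearly all from PAX5 (741 to 866 counts), which did not pass there. In THP1 they went from between 4.29 and 4.82 CPM in controls to between 12.7 and 14.4 CPM, where PAX5, a transcription factor of B cells, rose from 64 and 86 to 298 and 276 counts (log2 change 2.03 ± 0.14, adjusted p = 6.7e-13), while MS4A1 and BLK were at 0 or 1 count. Its part in the changes below was likewise not tested.

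In control cells the 10 genes had very different levels. Levels are given per length as RPKM, counts scaled to exon length and library size. MYB was the most abundant of them in both lines, with 108 and 110 RPKM in the Molm13 controls and 141 and 144 in the THP1 controls. In Molm13 it was followed by FLT3 (84.2 and 84.3), MEF2C (28.5 and 28.6), PBX3 (22.6 and 22.9), HOXA10 (21.8 and 23.6) and HOXA9 (20.5 and 20.7). PBX3 and HOXA10 overlapped in that order, as did HOXA5 and KMT2A lower down. MEIS1 (6.51 and 6.93), HOXA5 (5.98 and 6.46), KMT2A (5.91 and 6.07) and HOXA7 (3.94 and 4.57) made up the lower group. In THP1 the order was MYB, PBX3 (32.0 and 32.3), MEF2C (24.2 and 24.7), HOXA9 (17.6 and 17.8), FLT3 (13.3 and 13.6), HOXA10 (11.6 and 12.3), KMT2A (3.49 and 3.59), HOXA5 (1.51 and 1.63), HOXA7 (0.388 and 0.451) and MEIS1 (0.0132 and 0.0249), with no overlap between neighbours.

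**Figure D1:**
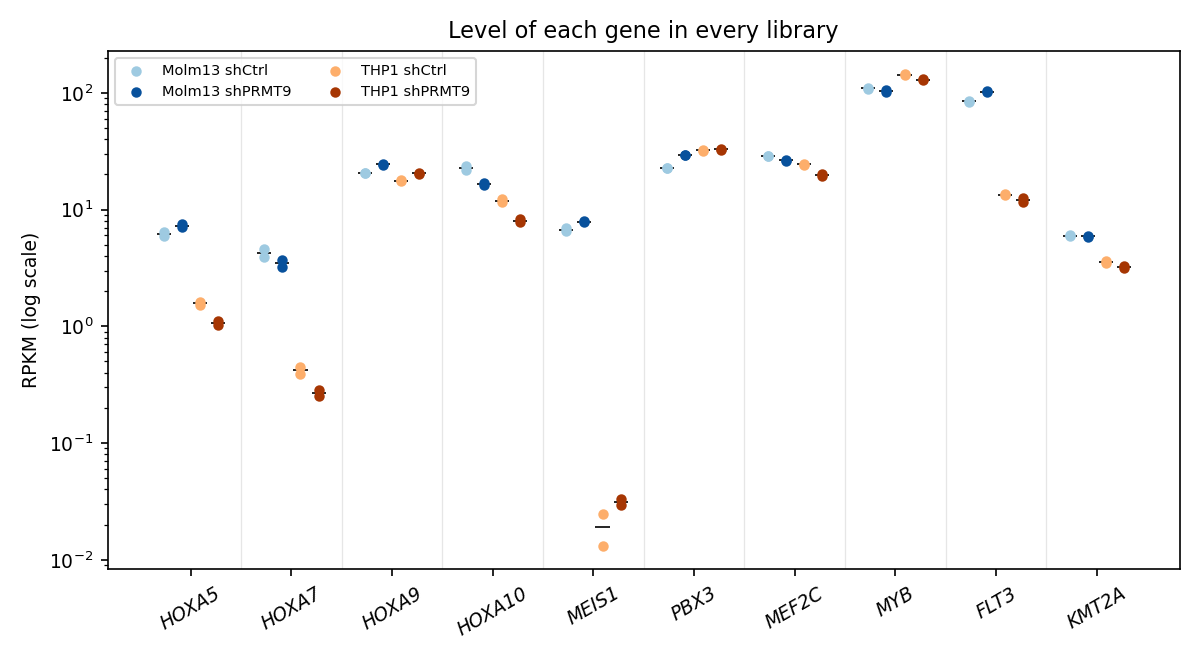
RPKM of the 10 genes in each of the 8 libraries on a log axis; points are libraries and bars are means of 2. MEIS1 sits below 0.04 RPKM in all THP1 libraries and above 6 RPKM in all Molm13 libraries, while MYB is above 100 RPKM everywhere.

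Control THP1 and control Molm13 cells differed for all 10 genes in the fit of 8 libraries, against a background of 82.8% of 19288 genes. Line and handling cannot be told apart, because the lines came in separate tables. MEIS1, the DNA-binding partner of HOXA9, had 1452 and 1483 counts in the Molm13 controls and 7 and 4 in the THP1 controls. Over the summed library totals that was 73.2 CPM (exact Poisson 95% interval 70.6 to 75.9) against 0.208 (0.104 to 0.372), intervals that cover counting error only. The gene was close to absent in THP1. HOXA7 was also lower in THP1 (log2 difference -3.34 ± 0.18 SE), as were FLT3 (-2.65 ± 0.04), HOXA5 (-1.98 ± 0.14), HOXA10 (-0.92 ± 0.05) and KMT2A (-0.76 ± 0.04). MEF2C and HOXA9 were lower by much less (-0.22 ± 0.03 and -0.22 ± 0.05). PBX3 and MYB were the exceptions and were higher in THP1 (0.50 ± 0.04 and 0.38 ± 0.03). The adjusted p of these edgeR quasi-likelihood tests ran from 1.3e-45 for FLT3 to 5.5e-05 for HOXA9.

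After PRMT9 knockdown the 10 genes did not move as a block. In Molm13 all 10 were tested: HOXA5, HOXA9, MEIS1, PBX3 and FLT3 rose, HOXA7, HOXA10, MEF2C and MYB fell, and KMT2A did not pass (edgeR quasi-likelihood test, Benjamini-Hochberg adjusted p below 0.05 over all genes). Among all 16446 genes tested 33.4% rose and 33.6% fell, and the groups did not overlap for 9 of the 10 genes against 81.9% of all genes. In THP1 9 genes were tested: HOXA9 rose, HOXA5, HOXA10, MEF2C, MYB, FLT3 and KMT2A fell, and HOXA7 and PBX3 did not pass. There 19.1% of 16294 genes rose and 18.6% fell, and groups did not overlap for 8 of the 9 genes against 66.0% of all. MEIS1 was not tested in THP1 because its counts were too low.

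The largest change in either direction was 1.36-fold in Molm13 and 1.58-fold in THP1. The THP1 value is that of HOXA7, which had few counts and did not pass (adjusted p = 0.14, edgeR). The largest THP1 change that passed was that of HOXA10 (log2 change -0.59). The log2 changes ran from -0.44 to 0.37 in Molm13, with a median of 0.106, and from -0.66 to 0.20 in THP1, with a median of -0.157. The median over all genes was within 0.001 of 0 in both lines. TMM scaling of the counts brings that median close to 0, so it does not measure total RNA. The median absolute log2 change over all genes, which drops the sign, was 0.386 in Molm13 and 0.193 in THP1. It is not comparable with the signed medians of the 10 genes. By the study's definition of differentially expressed genes (adjusted p below 0.05, fold change above 1.5 and RPKM above 1), 0 of the 10 genes qualified in Molm13, where 11.4% of genes qualified as higher and 11.4% as lower. In that line 9 of the 10 had an unadjusted p below 0.05 by edgeR, as had 11417 of all 16446 genes. DESeq2, which called 7 of the 10 and 8318 of 16446 genes, also gave 0 with that fold change. In THP1 only HOXA10 qualified, against 3.84% of genes higher and 2.39% lower. The fitted biological coefficient of variation was 0.0201 in Molm13 and 0.0247 in THP1. With it fixed at 0.1 only HOXA10 and PBX3 of the 10 genes in Molm13 and HOXA10 in THP1 passed. Over all genes 7270 of 16446 passed in Molm13 and 2001 of 16294 in THP1 in that setting.

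The knockdown effect differed between the lines for 4 of the 10 genes (interaction term of the fit of 8 libraries, adjusted p below 0.05), against 41.4% of 19288 genes. These were HOXA5, FLT3, PBX3 and MEF2C, and in each the log2 change was lower in THP1. For the other 6 genes no difference between lines passed the test, and their intervals are given with each gene or were wide (HOXA7, -1.08 to 0.39).

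**Figure D2:**
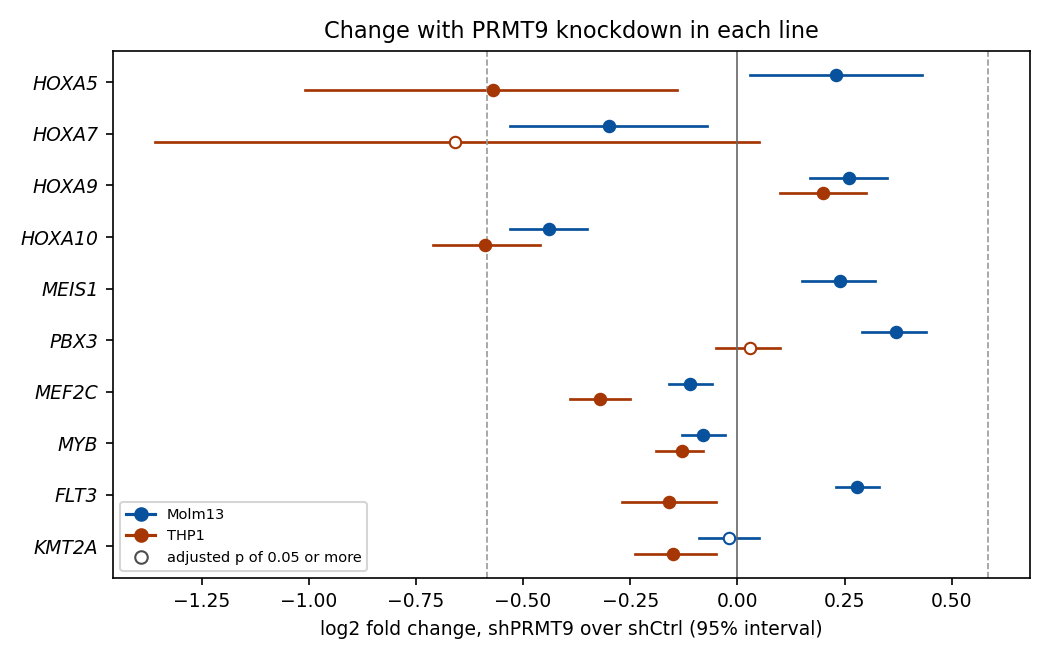
Log2 fold change of each gene, shPRMT9 over shCtrl, with 95% intervals in Molm13 (blue) and THP1 (red); open symbols did not pass and dashed lines mark a fold change of 1.5. HOXA9 lies right of 0 and HOXA10 left of 0 in both lines, and HOXA5 and FLT3 lie on opposite sides in the 2 lines. MEIS1 has no THP1 value.

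HOXA9, the homeobox gene most closely tied to MLL-fusion leukemia, lies on chromosome 7 (hg38, chr7:27162435-27175180, minus strand). In Molm13 it had 62.6 and 62.0 CPM in controls and 73.6 and 75.1 CPM after knockdown. In THP1 the values were 53.2 and 53.8 CPM in controls and 61.5 and 62.0 CPM after knockdown. Both knockdown libraries were above both controls in each line. HOXA9 rose by 0.26 ± 0.04 on the log2 scale in Molm13 (adjusted p = 1.3e-06, edgeR) and by 0.20 ± 0.05 in THP1 (adjusted p = 0.0015). The difference between lines was -0.05 (95% interval -0.18 to 0.08) and did not pass the test.

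HOXA10, its upstream neighbour and another homeobox gene linked to myeloid self-renewal, went the other way (chr7:27170591-27180261, minus strand). Its level was 80.9 and 87.3 CPM in Molm13 controls and 60.3 and 62.8 CPM in Molm13 knockdown cells. In THP1 it was 43.1 and 45.6 CPM in controls and 30.5 and 28.9 CPM after knockdown. No knockdown library reached the level of a control. The fall was -0.44 ± 0.05 in Molm13 (adjusted p = 1.2e-11, edgeR) and -0.59 ± 0.06 in THP1 (adjusted p = 3.9e-09), a fold of 0.736 and 0.666. The THP1 fold lies at the 1.5-fold limit, and it fell short of it without shCtrl replicate 2 or without shPRMT9 replicate 2 (log2 change -0.55 in both cases). The changes of HOXA10 differed between lines by -0.13 (95% interval -0.29 to 0.02; adjusted p = 0.18), and by -0.23 (adjusted p = 0.028) without Molm13 shCtrl replicate 2.

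Taking the counts of both genes in a library together, the share of HOXA10 was 56.4% and 58.5% in Molm13 controls and 45.0% and 45.5% after knockdown. In THP1 it went from 44.8% and 45.9% to 33.1% and 31.8%. The 95% Wilson intervals of control and knockdown libraries did not overlap within either line, the nearest bounds being 54.6% and 47.3% in Molm13 and 42.8% and 35.1% in THP1. These shares are not corrected for transcript length, are compared only between libraries, and their intervals cover counting error only. With 2 libraries a side no exact permutation test of a share can pass, so none is given.

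**Figure D3:**
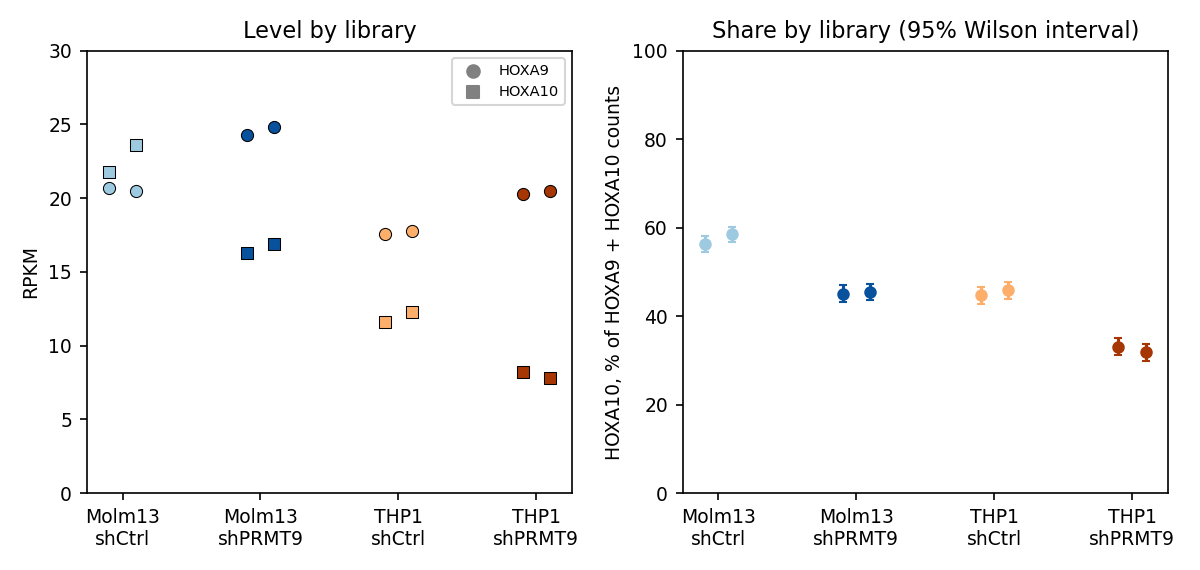
Left, RPKM of HOXA9 (circles) and HOXA10 (squares) in each library of the 4 groups. Right, HOXA10 as a percentage of the HOXA9 and HOXA10 counts of each library, with 95% Wilson intervals. In the knockdown libraries of both lines circles are higher and squares lower than in the controls.

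The annotated intervals of the genes overlap, so the counts were checked against their exons in GENCODE 29, in which 96.2% of the listed genes had the same interval. HOXA9 and HOXA10 share 0 exon bases there. The readthrough gene HOXA10-HOXA9 has 765 exon bases, of which 397 lie in HOXA9 exons and 368 in HOXA10 exons, and it was listed at 0 counts in all 8 libraries. It has no exon bases of its own, and reads in shared bases may have been left out. The 0 therefore does not show whether readthrough transcripts were present. The antisense gene HOXA10-AS shares 422 exon bases with HOXA9 and 608 with HOXA10 and had 147 to 247 counts a library. The strand setting of the counting is not given in the sources used here, so reads of HOXA10-AS cannot be told apart from those of the sense genes in the shared bases. Such reads may also have been left out of the counts. HOXA10-AS itself rose in Molm13 (149 and 147 to 169 and 190 counts, log2 change 0.28 ± 0.12, adjusted p = 0.036 by edgeR) and had a log2 change of -0.21 ± 0.12 in THP1 (adjusted p = 0.18).

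Because the neighbours moved apart, the 250 bases before the annotated starts of HOXA9 and of the shorter HOXA10 transcript are shown (RefSeq, GRCh38.p14, minus strand, 5′ to 3′). They lie at chr7:27165538-27165787 and chr7:27174321-27174570, and neither holds annotated exon bases. Another HOXA10 window, at chr7:27179862-27180111, lies in annotated exon bases and is not shown. It also holds a TATAAA and a CCAAT match. Gene-level counts do not tell which HOXA10 start was used. Capitals mark matches on either strand to TATAAA (the TATA box), CCAAT (the CCAAT box), CACGTG (an E-box) and TGATTTA (a HOX-PBX motif).
HOXA9: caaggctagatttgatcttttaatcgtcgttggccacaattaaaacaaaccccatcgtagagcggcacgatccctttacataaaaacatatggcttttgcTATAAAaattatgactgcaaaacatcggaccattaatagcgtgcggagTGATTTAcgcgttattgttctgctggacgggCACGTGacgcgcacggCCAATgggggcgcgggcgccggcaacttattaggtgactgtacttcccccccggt
HOXA10: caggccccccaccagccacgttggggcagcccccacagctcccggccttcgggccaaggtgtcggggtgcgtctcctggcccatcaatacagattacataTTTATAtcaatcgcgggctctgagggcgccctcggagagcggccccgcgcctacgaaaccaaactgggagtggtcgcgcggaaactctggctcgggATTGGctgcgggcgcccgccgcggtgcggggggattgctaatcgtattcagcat
Both windows shown hold a TATAAA and a CCAAT match, which occur in 10.7% and 32.0% of all 35116 RefSeq promoter windows of this length. The HOXA9 window alone of these 2 holds CACGTG and TGATTTA, found in 6.34% and 2.59% of all windows. Neither holds TGACAG (a MEIS motif) or AACGG (a MYB motif), found in 13.0% and 16.5%. A match of letters is a description only. A promoter window was found for 9 of the 10 genes, HOXA5 being the exception.

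HOXA5, a homeobox gene of the middle of the cluster (chr7:27141052-27143668), moved in opposite directions in the 2 lines. Molm13 had 225 and 200 counts in controls and 227 and 272 after knockdown, which was 11.0 and 10.2 CPM against 12.0 and 12.8 CPM. THP1 had 66 and 77 counts in controls and 47 and 43 after knockdown, or 2.57 and 2.79 CPM against 1.88 and 1.74 CPM. The groups did not overlap in CPM in either line, and the counts were few. The log2 change was 0.23 ± 0.10 in Molm13 (adjusted p = 0.040, edgeR) and -0.57 ± 0.21 in THP1 (adjusted p = 0.033). The difference between lines was -0.79 ± 0.23 (95% interval -1.25 to -0.33, adjusted p = 0.0040). Each line's own call was fragile. It was lost in Molm13 without shCtrl replicate 2 (0.18, adjusted p = 0.18) or shPRMT9 replicate 2 (0.20, adjusted p = 0.19), and in THP1 when any of the 4 libraries was left out, shCtrl replicate 1 (-0.62, adjusted p = 0.054), shCtrl replicate 2 (-0.52, adjusted p = 0.15), shPRMT9 replicate 1 (-0.63, adjusted p = 0.075) or shPRMT9 replicate 2 (-0.52, adjusted p = 0.14).

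HOXA7, which lies between HOXA5 and HOXA9 (chr7:27153716-27157936), had the fewest counts of the 4 HOXA genes. It had 225 and 186 counts in Molm13 controls and 167 and 167 after knockdown, or 11.0 and 9.50 CPM against 8.84 and 7.84 CPM. In THP1 it had 24 and 30 counts in controls and 17 and 15 after knockdown. It fell in Molm13 by -0.30 ± 0.12 (adjusted p = 0.021, edgeR). The call was lost without shCtrl replicate 1 (-0.19, adjusted p = 0.22) or shPRMT9 replicate 2 (-0.19, adjusted p = 0.25). In THP1 the log2 change was -0.66 with a 95% interval of -1.36 to 0.05 (adjusted p = 0.14), so a fall of the Molm13 size was not detectable at this depth. Of the HOXA7 exon bases 62.5% are shared with the antisense gene HOXA-AS3, which had 3 to 18 counts a library. Reads in those bases may have been left out of both counts.

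Of the other HOXA genes, those that passed rose in Molm13, and the single gene that passed in THP1 fell. Of these 7 genes, all tested in Molm13, HOXA3, HOXA6 and HOXA13 rose and none fell, with a median log2 change of 0.332. HOXA3, whose annotated interval spans HOXA5 with 0 shared exon bases, rose from 163 and 156 to 342 and 364 counts (log2 change 1.15 ± 0.10, adjusted p = 8.1e-14 by edgeR). In THP1 it had 9 to 14 counts a library. HOXA13, at the other end of the cluster, rose in Molm13 (0.11 ± 0.03) and was the gene that fell in THP1 (-0.25 ± 0.07, adjusted p = 0.0038), where 5 of the 7 were tested with a median of 0.0647. HOXA11 passed in neither line (0.08 ± 0.07 and 0.06 ± 0.09). Of the noncoding transcripts of the cluster, HOTTIP, which is known to bind WDR5 and to act on the distal HOXA genes, rose in Molm13 from 210 and 207 to 326 and 356 counts (0.71 ± 0.09, adjusted p = 7.1e-09); it had a log2 change of 0.14 ± 0.15 in THP1 (adjusted p = 0.52). Among these transcripts 2 of 5 tested rose in Molm13, the other being HOXA10-AS, and the 4 tested in THP1 had adjusted p of 0.18 to 0.78. HOXB genes, the paralogs that some AMLs express with HOXA, were nearly silent in Molm13 (at most 0.562 CPM in sum, 0 of 10 tested). In THP1 they summed to between 14.6 and 16.8 CPM, and HOXB3 was the only one of 5 tested to rise (0.45 ± 0.13, adjusted p = 0.0078).

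**Figure D4:**
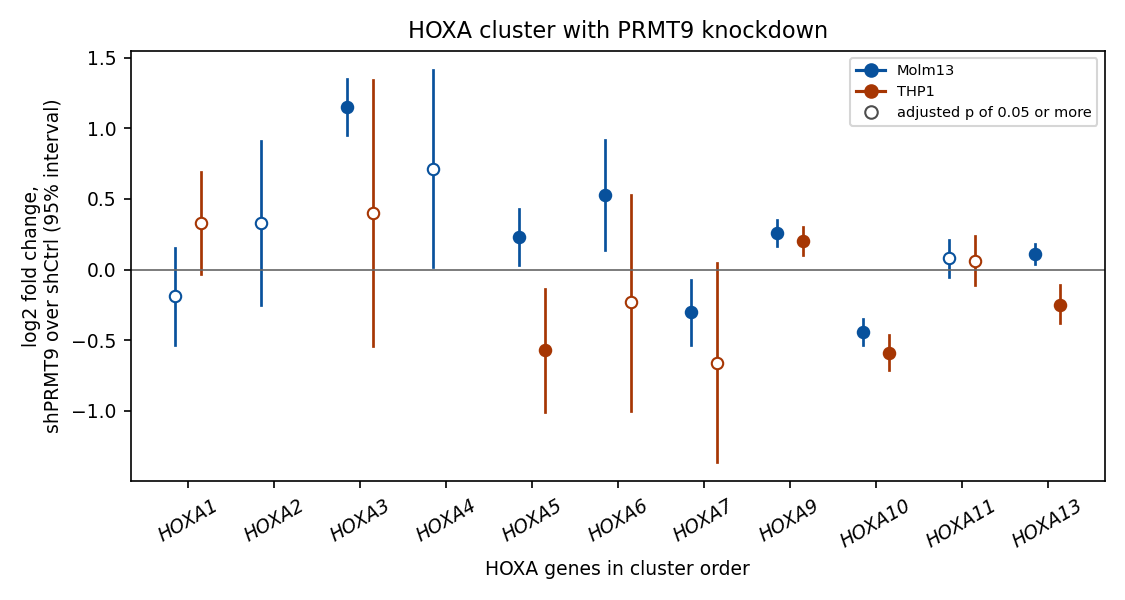
Log2 fold change with 95% intervals for the HOXA genes in their order along the cluster, in Molm13 (blue) and THP1 (red); open symbols did not pass, and HOXA2 and HOXA4 were not tested in THP1. HOXA9 is above and HOXA10 below 0 in both lines, with HOXA3 highest in Molm13 at 1.15.

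MEIS1 (chr2:66433452-66573869, plus strand), the cofactor that turns HOXA9 from a weak into a strong oncogene in mouse marrow, rose in Molm13. Controls had 71.2 and 75.7 CPM and knockdown cells 87.2 and 85.1 CPM, with no overlap. The log2 change was 0.24 ± 0.04 (adjusted p = 5.1e-06, edgeR). In THP1 it had 7 and 4 counts in controls and 8 and 9 after knockdown. Over the summed library totals this was 0.208 CPM (exact Poisson interval 0.104 to 0.372) and 0.337 (0.196 to 0.539), and the intervals overlapped. The difference between lines was 0.48 with a 95% interval of -0.67 to 1.64, too wide at this depth to show a difference.

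PBX3 (chr9:125747345-125967377, plus strand), the PBX protein most often found with HOXA9 in MLL-rearranged AML, had the largest rise of the 10 genes in Molm13. It went from 102 and 104 CPM to 132 and 132 CPM (log2 change 0.37 ± 0.04, adjusted p = 4.0e-12 by edgeR). In THP1 it stood at 146 and 145 CPM in controls and 150 and 147 CPM after knockdown. The THP1 log2 change was 0.03 with a 95% interval of -0.05 to 0.10 (adjusted p = 0.63), an interval that lies wholly below the Molm13 value. The lines differed by -0.33 ± 0.05 (adjusted p = 5.9e-07). Of the other PBX, MEIS and PKNOX genes, which encode the same class of HOX partners, PBX2 rose in Molm13 (mean RPKM 11.4 to 16.8, log2 change 0.57 ± 0.05), and it had a log2 change of -0.03 ± 0.04 in THP1. MEIS2 and PKNOX1 fell in both lines, MEIS2 by -0.28 ± 0.04 and -0.37 ± 0.07 and PKNOX1 by -0.38 ± 0.06 and -0.23 ± 0.07. These were all of the 3 tested in Molm13, with a median of -0.280, and the 2 of 7 that passed in THP1, with a median of -0.225.

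MEF2C (chr5:88717117-88904257, minus strand), a transcription factor tied to homing and self-renewal of MLL-AF9 leukemia cells, fell in both lines and further in THP1. It had 335 and 336 CPM in Molm13 controls and 311 and 309 CPM after knockdown. In THP1 it went from 290 and 285 CPM to 237 and 226 CPM. Groups did not overlap in either line. The log2 change was -0.11 ± 0.03 in Molm13 (adjusted p = 0.00037, edgeR) and -0.32 ± 0.03 in THP1 (adjusted p = 1.2e-08), with a difference of -0.19 ± 0.04 (adjusted p = 0.00014).

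MYB (chr6:135181315-135219173, plus strand), a transcription factor that MLL-fusion leukemia depends on, fell slightly in both lines. Levels were 595 and 607 CPM in Molm13 controls and 558 and 574 CPM after knockdown. In THP1 they were 792 and 774 CPM in controls and 722 and 710 CPM after knockdown. The falls of -0.08 ± 0.02 (adjusted p = 0.0037, edgeR) and -0.13 ± 0.03 (adjusted p = 0.00037) correspond to folds of 0.947 and 0.911, and the difference between lines was -0.04 (95% interval -0.12 to 0.03). With library totals alone that difference was -0.09 and passed (adjusted p = 0.032, edgeR). Without shPRMT9 replicate 1 the Molm13 value was -0.05 (adjusted p = 0.090). The relatives of MYB fell by more. MYBL2, a cell-cycle regulator, went from 4313 and 4118 to 1505 and 1826 counts in Molm13 (-1.34 ± 0.04) and from 10118 and 10367 to 6907 and 7049 in THP1 (-0.46 ± 0.03), and MYBL1 fell by -1.5 ± 0.14 and -0.47 ± 0.08. MEF2D, a close relative of MEF2C, rose in Molm13 (0.20 ± 0.02) and fell in THP1 (-0.09 ± 0.03, adjusted p = 0.040). Of the other MEF2 and MYB genes 1 rose and 3 fell among 4 tested in Molm13 (median -0.766), and 0 rose and 3 fell among 5 tested in THP1 (median -0.192).

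FLT3 (chr13:28003274-28100592, minus strand), the class III receptor tyrosine kinase of early blood progenitors, went up in Molm13 and down in THP1. Molm13 controls had 351 and 350 CPM and knockdown cells 418 and 429 CPM. THP1 controls had 56.7 and 55.3 CPM and knockdown cells 48.3 and 52.6 CPM. Groups did not overlap in either line. The log2 change was 0.28 ± 0.03 in Molm13 (adjusted p = 4.2e-13, edgeR) and -0.16 ± 0.05 in THP1 (adjusted p = 0.020), and the lines differed by -0.42 ± 0.06 (95% interval -0.54 to -0.31, adjusted p = 9.5e-09). The THP1 call was lost without shCtrl replicate 1 (-0.14, adjusted p = 0.12) or shPRMT9 replicate 1 (-0.10, adjusted p = 0.24). Gene-level counts do not tell a duplicated FLT3 allele from the normal allele.

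Among the other receptor kinases of the FLT3 class, CSF1R and PDGFRB rose in both lines and KIT in Molm13. CSF1R, the receptor for macrophage colony-stimulating factor and also a monocyte marker, rose from 307 and 280 to 1144 and 1297 counts in Molm13 (log2 change 2.06 ± 0.06) and from 1752 and 1870 to 3445 and 3485 in THP1 (1.03 ± 0.04). KIT, the stem cell factor receptor, rose in Molm13 from 48 and 45 to 99 and 111 counts (1.17 ± 0.18, adjusted p = 2.1e-07 by edgeR) and had 3 to 12 counts a library in THP1. PDGFRB rose from few counts, 3 and 5 to 15 and 17 in Molm13 and 17 and 15 to 28 and 39 in THP1. These were all 3 tested in Molm13 (median 1.97) and 2 of 3 tested in THP1 (median 1.03), where PDGFRA did not pass (-0.41 ± 0.51, adjusted p = 0.59). FLT3LG, which encodes the ligand of FLT3, had 0 to 17 counts a library and was not tested.

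KMT2A (chr11:118436490-118526832, plus strand), the gene whose N-terminal part the fusion carries, did not pass in Molm13. It had 133 and 130 CPM in controls and 127 and 131 CPM after knockdown, overlapping groups with a log2 change of -0.02 (95% interval -0.09 to 0.05, adjusted p = 0.63 by edgeR). In THP1 it fell from 76.6 and 78.9 CPM to 72.2 and 68.7 CPM (-0.15 ± 0.05, adjusted p = 0.011). That call was lost without shCtrl replicate 2 (-0.13, adjusted p = 0.089) or shPRMT9 replicate 2 (-0.12, adjusted p = 0.10). Reads of the fusion and of the normal allele cannot be told apart. RPKM of KMT2A rests on the deposited 21961 exon bases, whereas GENCODE 29 lists 31305. The difference between lines was -0.12 (95% interval -0.23 to 0.00, adjusted p = 0.11). It passed in edgeR with DESeq2 size factors (-0.14, adjusted p = 0.045) and with library totals alone (-0.16, adjusted p = 0.021). It passed without Molm13 shCtrl replicate 1 (-0.16, adjusted p = 0.044), Molm13 shPRMT9 replicate 1 (-0.17, adjusted p = 0.043), THP1 shCtrl replicate 1 (-0.17, adjusted p = 0.033) or THP1 shPRMT9 replicate 1 (-0.18, adjusted p = 0.020). MLLT3, the fusion partner gene, rose in Molm13 from 518 and 484 to 685 and 778 counts (0.55 ± 0.06, adjusted p = 2.8e-10) and did not pass in THP1, with 302 and 304 counts in controls and 220 and 258 after knockdown (log2 change -0.25, adjusted p = 0.067).

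Relatives and partners of KMT2A fell more often than they rose in Molm13. Of all genes 33.4% rose and 33.6% fell in Molm13, and 19.1% rose and 18.6% fell in THP1. Of the other 6 KMT2 methyltransferases 5 fell and KMT2E rose in Molm13 (median -0.373), with SETD1B going from 1784 and 1803 to 1004 and 1108 counts (log2 change -0.76 ± 0.05). In THP1 KMT2C (-0.36 ± 0.04) and SETD1A (-0.14 ± 0.04) fell and the other 4 did not pass (median -0.0169). Of 17 genes of the MLL complex and its fusion partners 9 fell and 6 rose in Molm13 (median -0.261), and 6 fell and 3 rose in THP1 (median -0.0658). HCFC1, a host cell factor that binds MLL, fell in Molm13 (-0.80 ± 0.03) and rose slightly in THP1 (log2 change 0.10, adjusted p = 0.022 by edgeR; difference between lines 0.92 ± 0.05, adjusted p = 3.4e-21). AFF1, another fusion partner and elongation factor, fell in THP1 (-0.55 ± 0.03) and rose slightly in Molm13 (0.09 ± 0.02, adjusted p = 0.0022; difference -0.62 ± 0.04, adjusted p = 1.4e-17).

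Other genes known as MLL fusion targets moved both ways as well. Of 13 tested in Molm13 5 rose and 7 fell (median -0.101), where 33.4% of all genes rose and 33.6% fell. Of 12 tested in THP1 2 rose and 5 fell (median -0.0997), where 19.1% of all genes rose and 18.6% fell. BCL2, the apoptosis inhibitor, fell in both lines, from 2364 and 2305 to 1085 and 1282 counts in Molm13 (log2 change -0.98 ± 0.04) and from 4788 and 5185 to 3149 and 3026 in THP1 (-0.60 ± 0.04). LMO2, a scaffold of blood transcription factors, rose in Molm13 from 2224 and 2174 to 4035 and 4541 counts (0.96 ± 0.03). The published LSC17 stemness genes, 17 genes scored in AML stem cells, had 10 tested in Molm13, of which 6 rose and 4 fell (median 0.974), and 11 tested in THP1, of which 2 rose and 3 fell (median -0.0864). CDK6 stands in both lists. The summed level of the list went the other way in Molm13, from between 1280 and 1320 CPM to between 1030 and 1040 CPM. LAPTM4B, an abundant member named after its values were seen, fell there from 5016 and 4932 to 2818 and 3246 counts (-0.71 ± 0.03). CDK6, abundant too and named in the same way, fell there from 14636 and 14951 to 10783 and 12335 counts (-0.36 ± 0.03). Several of the genes that rose had few counts. EMP1, a membrane protein gene, rose from 23 and 26 to 168 and 178 counts in Molm13 and from 26 and 31 to 98 and 103 in THP1, and CD34, the surface marker of blood stem and progenitor cells, rose from 5 and 8 to 26 and 23 in Molm13. Myeloid blast markers rose in 6 and fell in 2 of 8 in Molm13 and rose in 2 and fell in 5 of 8 in THP1.

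**Figure D5:**
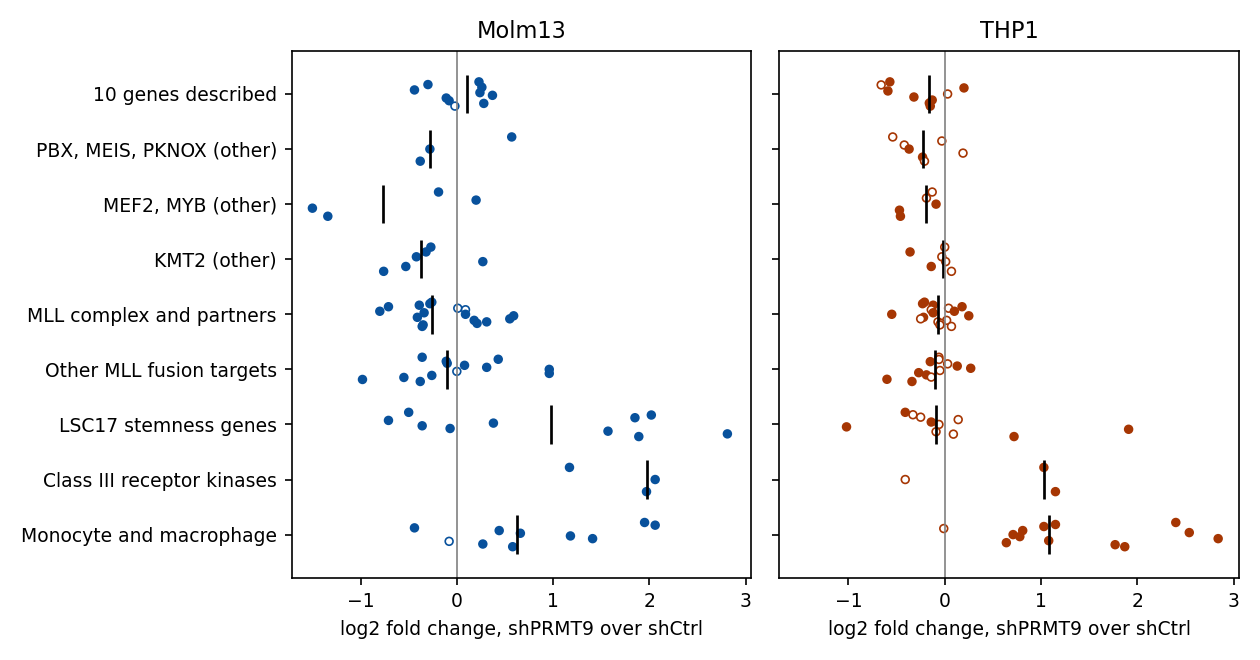
Log2 fold change of every tested gene in 9 groups, in Molm13 (left) and THP1 (right); filled points passed, open points did not, and black bars are group medians. The 10 genes described have medians of 0.106 and -0.157, and the monocyte and macrophage markers 0.621 and 1.08.

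The gene closest to each of the 10 in its profile over the 8 libraries was found by the root mean square difference of centred log2 CPM, among 14894 genes with a mean of at least 1 CPM. HOXA9 lay nearest to ACTN4 (0.0310) and ARID4B (0.0341), and HOXA10 to ZEB1 (0.0779) and TRERF1 (0.0851). PBX3 lay nearest to SRSF5 (0.0319), MEF2C to SPPL3 (0.0376) and BCL11A (0.0389), and MYB to RPL7L1 (0.0251) and HDDC2 (0.0270). KMT2A lay nearest to TIAL1 (0.0364) and TARBP1 (0.0407). FLT3 lay nearest to ZC3H12C (0.0660) and LRRC75A-AS1 (0.111), HOXA5 to FIBCD1 (0.103) and NFIA (0.107), MEIS1 to RPS15AP38 (0.141) and CDC42P6 (0.174), and HOXA7 to CYP4F26P (0.145) and EPAS1 (0.149). None of the nearest genes was another of the 10.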

How the data were processed

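RNA was extracted with TRIzol (RIN above 8 per the labels), and libraries were made with the Kapa mRNA HyperPrep kit and sequenced on an Illumina HiSeq system. The authors aligned reads to hg38, and the submitters' processing notes name TopHat2 2.0.8, HTSeq 0.11.2 and edgeR 3.30.3. The deposited values are raw counts per gene, in a table for each line, with the total exon length of each gene in bases. Strand setting and annotation release are not given in the sources used here.

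The 8 libraries formed 4 groups of 2 by their labels. Counts were tested in R 4.3.3 with the quasi-likelihood test of edgeR 4.0.16 (filterByExpr, TMM scaling, Benjamini-Hochberg adjustment over all genes tested), within each line for the knockdown and over all 8 libraries for the difference between lines and the control baseline. CPM and RPKM use TMM-scaled totals and the deposited exon lengths. Errors after a log2 change are SEs. Alternatives used limma 3.58.1 and DESeq2 1.42.0, other scalings, no filter, a fixed spread, a fold test, thinning and leaving out libraries. The fitting code was tested on simulated data. Exons came from GENCODE 29, promoters and their build from RefSeq.

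The members and gene lists were chosen with earlier results of these data known. All 10 genes and their families were named. From each other list up to 3 genes per line with the largest log2 change were eligible, among those with an adjusted p below 0.05 and groups that did not overlap. For each of the 10 the 2 nearest profiles were named (prior count 2). Some genes that these rules allow are not reported here.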

Additional observations from a re-analysis of the deposited data

Results flagged for a closer look

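The knockdown effect differed between the lines for 4 of the 10 genes, by the interaction term of edgeR's quasi-likelihood test over all 8 libraries. The difference, THP1 minus Molm13 on the log2 scale, was -0.79 for HOXA5, -0.42 for FLT3, -0.33 for PBX3 and -0.19 for MEF2C (adjusted p = 0.0040, 9.5e-09, 5.9e-07 and 0.00014). HOXA5 and FLT3 passed in opposite directions in the lines, PBX3 passed in Molm13, and MEF2C fell in both. Of all genes 41.4% passed the same test. Groups of 2 libraries are too small for a test of single outlying samples.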

How the results depend on the processing

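The calls counted here were 9 of 10 genes in Molm13, 7 of 9 in THP1 and 4 of 10 between lines. With the spread fixed at a coefficient of variation of 0.1 the counts were 2, 1 and 1. Over all genes, calls then went from 11018 to 7270 of 16446, 6139 to 2001 of 16294 and 7990 to 3854 of 19288. A test against a fold change of 1.5 called 0 in either line, with 0 of these genes at an unadjusted p below 0.05. It called 2974 of all 16446 genes in Molm13 and 668 of 16294 in THP1. In THP1 4 of these genes were called with no filter on low counts and 4 by DESeq2. Over all genes these settings called 3796 of 32584 and 4246 of 14398. Between lines 5 were called with DESeq2 size factors in edgeR and 6 with library totals alone, beside 7992 and 8002 of all 19288 genes. KMT2A was called in both cases, and MYB with library totals. By DESeq2 HOXA5 lost its call in both lines, HOXA7 in Molm13, and FLT3 and KMT2A in THP1; with upper quartile scaling HOXA7 and MYB lost theirs in Molm13. Leaving out a library in turn leaves 1 library in a group, which is assumed to vary like the others. Counts of calls from these fits are not given. The log2 change of KMT2A in Molm13 turned to 0.03 with upper quartile scaling and to 0.01 without shPRMT9 replicate 1 (-0.04 to 0.01 over the libraries left out), and that of PBX3 in THP1 to 0 with library totals alone; none of these passed. THP1 had 2 differentially expressed genes of the 10 with library totals or upper quartile scaling, 0 in the fit of all 8 libraries and 0 with a fold limit of 2. HOXA9 and HOXA10 kept their directions in all 15 alternatives of each line. No scaling moved the median of all genes by over 0.1, a limit larger than the MYB change in Molm13 (-0.08). Upper quartile scaling gave a median of 0.048 over all genes in Molm13. There MEF2C went from -0.11 to -0.06 and MYB from -0.08 to -0.03. The cause of these changes was not tested.

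Replicate numbers were shared between groups, but deviations of same-numbered libraries were uncorrelated (-0.0786 in Molm13, -0.00402 in THP1), so the numbers were not taken as pairs. With the replicate block 9 of these genes in Molm13, 7 in THP1 and 4 between lines were called. Over all genes it called 10893 of 16446, 6065 of 16294 and 7729 of 19288. An earlier form of the quasi-likelihood fit, added after seeing the data, gave 9, 7 and 4. Its calls over all genes were 11008, 6127 and 8142. Counts under 100 a library limit HOXA5, HOXA7 and MEIS1 in THP1.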
